A study of Mus musculus with 8 samples.

Results

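Fos, Fosb, Jun, Junb, Egr1, Atf3, Ier2, Myc and Maff are immediate-early genes, and their transcripts were followed across 8 arrays of mouse gastrocnemius, the large calf muscle. They make up 9 of the 17352 rows of the deposited table, where each row is an Ensembl gene ID and stands for 1 gene. The 9 rows were chosen by a list of IDs drawn up with earlier results of these data in view, namely how much the genes varied between arrays and how the genotypes differed. Both kinds of value are therefore given as a description: intervals show precision only, and nothing is read from counts of calls. The pairing of these 9 IDs with symbols came with that list. No table used here pairs the other rows with symbols, so the row of the targeted gene, Anxa2, and the other immediate-early, heat-shock, muscle and cell type genes listed for this work were not looked up, and the labelled tissue was not checked against its markers.

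The mice were 24 weeks old and of C57BL/6 background, 4 of them wild type and 4 Anxa2 knockouts. Anxa2 is the gene of annexin A2, a calcium-dependent membrane-binding protein. The labels do not say how the knockout was made, and they give neither the sex of the animals nor any treatment or injury. Muscle of the left hindlimb was frozen right after euthanasia, 1 array was run per animal, and the values are log2 expression values from RMA, a method that gives all arrays the same distribution of probe intensities before it sums up the probes of a gene. In bulk muscle, fewer cells of a type and less RNA per cell cannot be told apart.

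Immediate-early genes are switched on within minutes of a stimulus, without new protein synthesis, by kinases that activate factors already bound to their promoters, and their transcripts decay quickly. In skeletal muscle they respond to contraction, stretch, injury and stress, and handling of tissue can induce them too. Fos, Fosb, Jun, Junb and Atf3 encode leucine-zipper proteins that pair with each other: Fos and Fosb proteins need a Jun-type partner to form the factor AP-1, while Atf3 often represses. Maff is a small Maf protein that has a leucine zipper but no activation domain, Egr1 is a zinc-finger factor, Myc is a helix-loop-helix factor of growth control, and Ier2 is a nuclear protein induced by growth factors.

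A cAMP response element, the site of CREB and related factors, is a known feature of several of these promoters. RefSeq promoter windows of the GRCm38.p6 build, 250 bases before to 50 bases after a transcription start, were matched to the genes by symbol. Those used were 8 windows of 6 of the 9 genes, 3 of them for Maff. Egr1 was excluded by its location in the genome, and Ier2 and Myc gave no usable window. The counts that follow therefore say nothing about these genes. The core of the element, TGACG on either strand, lay in 6 of the 8 windows, against 20.8% of all 32851 windows of that length in the table. The full element TGACGTCA, which contains the core, lay in 1 window, at a start of Maff, against 1.79% of all windows. The AP-1 site, TGACTCA or TGAGTCA, lay in 0 of the 8 against 5.20%, the CArG box bound by serum response factor in 0 against 1.63%, and TATAAA on either strand in 2, those of Fos and Junb, against 13.6%. A match describes letters only. Sites more than 250 bases before a start lie outside these windows, so a count of 0 does not show that the genes lack a site. Below are the windows of Fos and Fosb, which put the arrays in the most similar order among the genes with a window, of Atf3, which varied widely and was lowest in an array where Fos and Fosb were high, and of the Maff start with the full element, Maff being the gene whose genotypes did not overlap. Capitals mark the core of the element and, for Maff, the full element. In Fos the 2 cores begin 129 and 66 bases before the start, and in Fosb the core begins 60 bases before it.
Fos, chr12:85473640-85473939, plus strand: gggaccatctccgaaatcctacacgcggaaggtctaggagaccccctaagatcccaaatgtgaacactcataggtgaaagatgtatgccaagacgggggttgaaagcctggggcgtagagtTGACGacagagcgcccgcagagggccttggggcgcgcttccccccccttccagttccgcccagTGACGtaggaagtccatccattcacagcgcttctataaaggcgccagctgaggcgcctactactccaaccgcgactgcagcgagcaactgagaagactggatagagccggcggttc
Fosb, chr7:19309996-19310295, minus strand: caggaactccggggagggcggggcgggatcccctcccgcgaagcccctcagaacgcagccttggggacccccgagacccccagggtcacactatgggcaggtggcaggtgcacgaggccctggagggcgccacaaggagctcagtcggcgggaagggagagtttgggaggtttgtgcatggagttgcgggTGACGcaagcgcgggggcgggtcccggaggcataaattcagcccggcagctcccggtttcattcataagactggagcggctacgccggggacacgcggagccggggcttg
Atf3, chr1:191183284-191183583, minus strand: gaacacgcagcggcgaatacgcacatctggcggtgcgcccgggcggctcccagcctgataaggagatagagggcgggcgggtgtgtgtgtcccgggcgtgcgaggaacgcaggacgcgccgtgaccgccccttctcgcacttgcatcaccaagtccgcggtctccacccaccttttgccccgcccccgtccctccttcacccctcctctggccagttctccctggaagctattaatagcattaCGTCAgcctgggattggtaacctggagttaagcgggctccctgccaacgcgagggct
Maff, chr15:79347270-79347569, plus strand: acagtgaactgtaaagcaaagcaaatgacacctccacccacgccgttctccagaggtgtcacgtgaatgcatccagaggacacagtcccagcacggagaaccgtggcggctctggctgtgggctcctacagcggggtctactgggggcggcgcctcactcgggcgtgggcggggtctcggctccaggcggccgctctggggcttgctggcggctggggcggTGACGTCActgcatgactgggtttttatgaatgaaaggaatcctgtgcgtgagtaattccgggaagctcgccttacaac

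Some arrays stood apart over the whole table. Wild type replicate 4 correlated least with the rest across rows, at 0.978 on average where each other array had 0.988 to 0.991, and had the narrowest interquartile range, 2.77, followed by knockout replicate 2 at 2.88. The lowest array median, 4.95, was that of wild type replicate 2, and the highest, 5.09, that of wild type replicate 4. Row ENSMUSG00000086503_at read between 8.98 and 9.64 in wild type replicates 1 and 2 and knockout replicates 3 and 4, and between 3.56 and 4.07 in the other four, so that the animals also differed in something that crossed genotype. The comparison of genotypes below took no account of this split, and its part in the spread within a genotype was not tested.

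The AP-1 gene Fos (ENSMUSG00000021250_at) read 9.45, 10.89, 9.75 and 10.01 in wild type replicates 1 to 4, and 10.35, 9.54, 10.42 and 9.71 in knockout replicates 1 to 4. Wild type replicate 2 was highest, knockout replicates 3 and 1 came next, and the genotypes overlapped throughout. The lowest and highest animals, both wild type, were 2.71-fold apart. The genotype means were almost equal, with 10.02 ± 0.62 for wild type against 10.00 ± 0.45 for the knockout (SD, n = 4).

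Fosb (ENSMUSG00000003545_at), the close relative of Fos, varied most of the 9. It read 4.03, 6.03, 4.59 and 4.35 in the wild type and 5.94, 4.23, 4.56 and 4.60 in the knockout, replicates 1 to 4. Wild type replicate 2 and knockout replicate 1 stood together, 0.09 log2 units apart, and the third highest array lay 1.34 lower than the second. The other six arrays were below the median of their own array, and without a detection call it is not known whether Fosb was above background in them. Lowest and highest were 4.02-fold apart on this scale, which compresses differences near background. The 2 high arrays lay on opposite sides of the split in ENSMUSG00000086503_at.

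**Figure D1:**
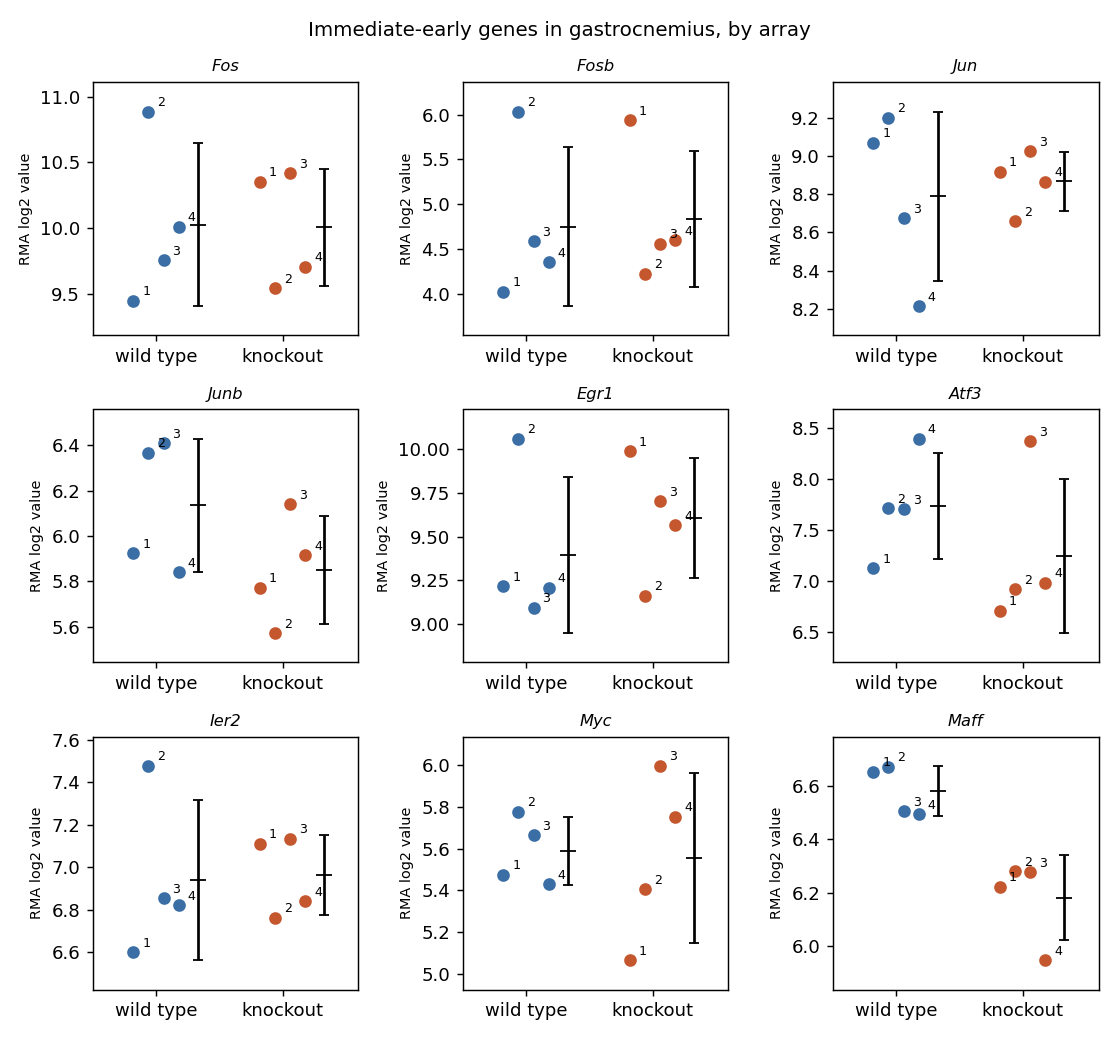
RMA log2 values (vertical axis, own scale per gene) of the 9 immediate-early genes in the 4 wild-type and 4 knockout arrays; digits are replicate numbers and black bars the mean ± SD of a genotype. Fosb is high in 1 array of each genotype (6.03 and 5.94), and only for Maff do the genotypes not overlap.

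The Jun family, which supplies the partners of Fos proteins, varied less. Jun (ENSMUSG00000052684_at) read 9.07, 9.20, 8.67 and 8.21 in the wild type and 8.92, 8.66, 9.03 and 8.86 in the knockout. All knockout arrays lay within the wild-type range of 0.99, whose low end was wild type replicate 4. Junb (ENSMUSG00000052837_at) read 5.93, 6.37, 6.41 and 5.84 in the wild type and 5.77, 5.57, 6.14 and 5.92 in the knockout. Its 2 highest arrays were wild type replicates 3 and 2 and its 2 lowest were knockout replicates 2 and 1, with overlap between them.

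Egr1 (ENSMUSG00000038418_at) read 9.22, 10.06, 9.10 and 9.21 in the wild type and 9.99, 9.16, 9.70 and 9.57 in the knockout. The 3 highest arrays were those that led in Fos, with wild type replicate 2 and knockout replicate 1 only 0.07 apart. Ier2 (ENSMUSG00000053560_at) read 6.60, 7.48, 6.86 and 6.82 in the wild type and 7.11, 6.76, 7.13 and 6.84 in the knockout. It had the same 3 leading arrays in the same order as Fos, and the same lowest one, wild type replicate 1.

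Atf3 (ENSMUSG00000026628_at), a stress-induced member of the family, ranked second to Fosb in its variation. It read 7.12, 7.71, 7.70 and 8.40 in the wild type and 6.71, 6.92, 8.37 and 6.98 in the knockout. Wild type replicate 4 and knockout replicate 3 were highest and 0.03 apart, whereas knockout replicate 1, high in Fos, Fosb, Egr1 and Ier2, was the lowest. It shared 2 of the 3 leading arrays of Fos, knockout replicate 3 and wild type replicate 2. The range was 3.23-fold. Myc (ENSMUSG00000022346_at) read 5.47, 5.78, 5.66 and 5.43 in the wild type and 5.06, 5.41, 6.00 and 5.75 in the knockout. It was highest in knockout replicate 3 and, like Atf3, lowest in knockout replicate 1.

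Maff (ENSMUSG00000042622_at) read 6.65, 6.67, 6.51 and 6.49 in the wild type and 6.22, 6.28, 6.28 and 5.94 in the knockout. Every knockout array was below every wild-type array. The spread within a genotype was small, with an SD of 0.09 for wild type against 0.16 for the knockout (n = 4).

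**Figure D2:**
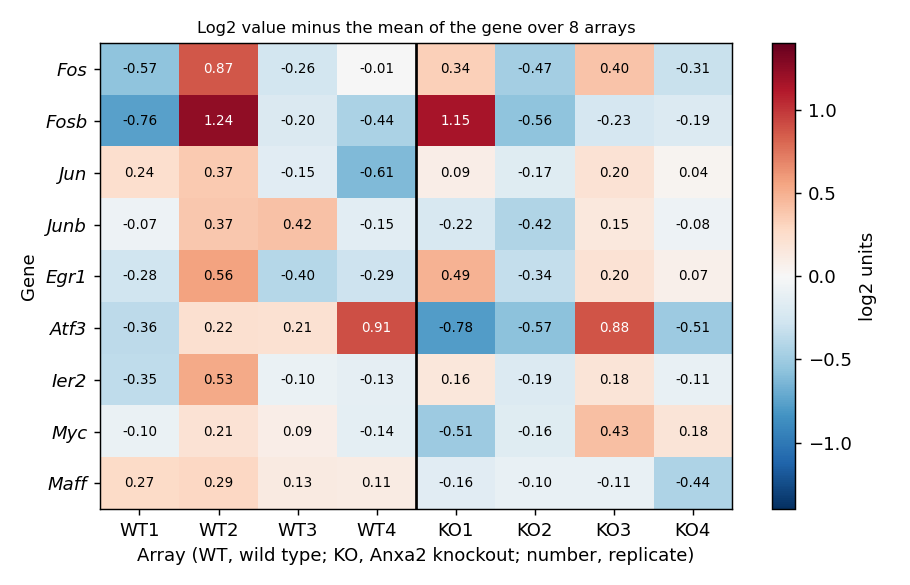
Log2 value of each gene (rows) in each array (columns) after subtraction of the mean of that gene over the 8 arrays; red is above and blue below the mean, and the black line parts the genotypes. Fosb is most raised in WT2 and KO1, Atf3 in WT4 and KO3, and the row of Maff changes colour at the line.

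The size of this variation was compared with that of all rows, using the SD of the arrays around the mean of their genotype. The median over the 9 genes was 0.33 log2 units, against 0.18 over all rows. Fosb had an SD of 0.82, above 99.6% of all rows, followed by Atf3 at 0.65 (99.1%), Fos at 0.54 (98.3%) and Egr1 at 0.40 (94.2%). Jun, Myc, Ier2 and Junb lay above 88.9%, 86.2%, 84.2% and 78.3% of rows. Maff was the exception, at 0.13 and above 24.2%. Among rows of the same quartile of mean level, Fosb, Atf3, Fos and Egr1 lay above 99.6%, 98.5%, 96.6% and 88.0%. There Myc, Jun, Junb, Ier2 and Maff lay above 84.1%, 78.9%, 75.4%, 72.3% and 23.3%. With each array left out in turn, Fosb and Fos stayed above 98.8% and 93.3% of all rows at the lowest. Single arrays counted for more in the place of some other genes among all rows. Without wild type replicate 2 the SD of Ier2 dropped from 0.30 to 0.17, above 42.1% of rows, and Egr1 lay above 77.2%. Without knockout replicate 3 the SD of Atf3 dropped to 0.41 but was still above 94.2% of all rows. Without wild type replicate 4 that of Jun dropped from 0.33 to 0.21, above 75.8%. Myc lay above 62.4% without knockout replicate 1 and above 71.9% without knockout replicate 3.

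Over the 9 genes, wild type replicate 2 was the highest array for 6 genes and among the 3 highest for all 9, although its median over the whole table was the lowest. Knockout replicate 3 was among the 3 highest for 7 genes. Knockout replicate 2 was among the 3 lowest for 8, and wild type replicate 4 for 6. Both also had the narrowest interquartile ranges over the whole table, 2.88 and 2.77. Whether this bears on their low values was not tested.

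How far the genes moved together was counted over the 28 pairs of arrays: 2 genes order a pair alike if both are higher in the same array. The median row of the table ordered 14 pairs as Fos did. Ier2 ordered 26 of the 28 as Fos did, Fosb 22 and Egr1 21. Of the other rows, 0.0404% matched Fos in at least 26 pairs, 1.19% in at least 22 and 2.44% in at least 21. Ier2 and Fosb ordered 24 pairs alike. In all arrays but wild type replicate 2 and knockout replicate 1, Fosb may not be above background, so its order among them is uncertain. Over the 12 pairs within a genotype, where the median row matched Fos in 6, Ier2 matched it in 11, Fosb, Egr1, Jun and Atf3 in 9 each, Junb and Myc in 8 and Maff in 6. Within genotypes, then, Fosb and Egr1 matched Fos no more often than Jun and Atf3 did.

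Over all 28 pairs, Jun and Atf3 ordered 18 as Fos did, Junb and Myc 17, and Maff 14, the same as the median row. Jun itself matched Egr1 in 21 pairs and Ier2 in 20. Atf3 matched Fosb in 12 pairs and Egr1 in 13, but Myc in 21, and Myc matched Junb in 22. Without wild type replicate 2, the array with most of the high values, Ier2 ordered 19 of 21 pairs as Fos did, Fosb 15, Egr1 14, Atf3 13 and Jun 11. Without wild type replicate 1, Jun matched Fos in 17 and Fosb in 15, and without knockout replicate 1, Atf3 and Fosb did so in 16 each and Egr1 in 15. Without wild type replicate 4 and knockout replicate 2, Ier2 matched Fos in 15 of 15 pairs, Egr1 in 12, Fosb in 11, and Jun and Atf3 in 10 each. The place of Ier2 as the closest match to Fos held in each of these counts, while the order of the other genes depended on single animals.

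**Figure D3:**
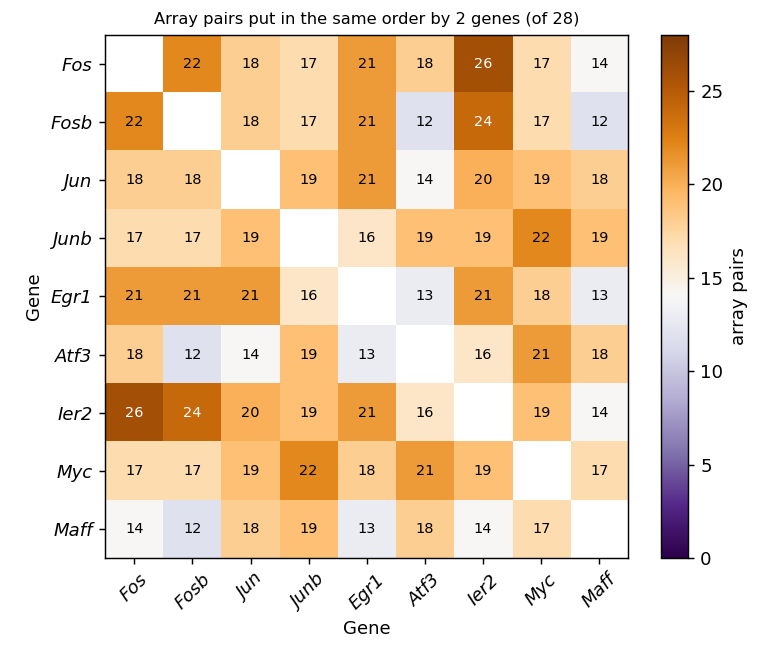
Number of the 28 array pairs that each 2 of the 9 genes put in the same order; dark orange and dark purple cells are the extremes of the scale and 14 is its middle. Fos, Fosb, Egr1 and Ier2 share 21 to 26 pairs with each other, and Maff shares 12 to 19 with the rest.

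The mean profile of the 9 genes, each centred on its own mean, was compared with every other row that varied at least 50% as much as that profile. Of 12719 such rows, ENSMUSG00000034154_at came closest, with a root mean square difference of 0.10 log2 units over the 8 arrays. It read 5.42, 5.92, 5.51 and 5.35 in the wild type and 5.62, 5.41, 5.82 and 5.39 in the knockout. ENSMUSG00000045005_at was next, at 0.11, with its highest value, 4.18, again in wild type replicate 2. Neither row is paired with a symbol in the sources used here.

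The design holds 1 comparison, the knockout against the wild type, and asks what loss of annexin A2 does in muscle. Limma, fitted to all rows, called 0 of the 9 genes at an adjusted p of 0.05 after Benjamini-Hochberg adjustment, as it called 0% of the table. At an unadjusted p of 0.05 it gave 1 of the 9, Maff, against 1.55% of all rows. Because the genes were chosen with this contrast known, nothing is read from these counts. The knockout mean was higher in 4 genes and lower in 5, and 52.9% of all rows had a lower mean in the knockout. The median difference over the 9 was -0.02 log2 units, against -0.01 over all rows.

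For Maff the wild-type mean was 6.58 ± 0.09 and the knockout mean 6.18 ± 0.16 (SD, n = 4). The difference of -0.40 (SE 0.11, 95% interval -0.64 to -0.16) made the level 1.32-fold lower in the knockout. Of the whole table, 0.703% of rows had every knockout array below every wild-type array, and 1.31% had no overlap in either direction. Genotype held 75.7% of the sum of squares of Maff over the 8 arrays, against a median of 6.02% over all rows and 1.82% over the 9 genes. Without wild type replicate 4 and knockout replicate 2 the difference was -0.46 (SE 0.11).

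Among the other 8 genes, Atf3 had the widest gap between means, 7.73 ± 0.52 against 7.24 ± 0.76, a difference of -0.49 (SE 0.36, interval -1.30 to 0.32) that was smaller than the SD within the knockout. Single animals moved it widely: it was -0.27 without wild type replicate 4 and -0.31 without knockout replicate 1, but -0.87 (interval -1.44 to -0.30) without knockout replicate 3. Without wild type replicate 4 and knockout replicate 2 together it was -0.16. Egr1 differed by 0.21 (SE 0.23, interval -0.30 to 0.72), and this too depended on single animals, with 0.43 (interval 0.03 to 0.83) without wild type replicate 2, 0.36 without knockout replicate 2, 0.11 without wild type replicate 3 and 0.08 without knockout replicate 1. Junb differed by -0.29 (SE 0.17, interval -0.66 to 0.08), and by -0.38 to -0.19 with each array left out in turn. Its interval left out 0 in 2 of 17 alternative fits. These were the fit without wild type replicate 4 (-0.74 to -0.02) and that with array weights (-0.66 to -0.03). Fosb differed by 0.08 with an interval of -0.93 to 1.10, so that the data set little bound on its genotype difference in either direction. Fos differed by -0.02 (interval -0.70 to 0.66), Jun by 0.08 (interval -0.36 to 0.52), Ier2 by 0.02 (interval -0.38 to 0.43) and Myc by -0.03 (interval -0.45 to 0.38).

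**Figure D4:**
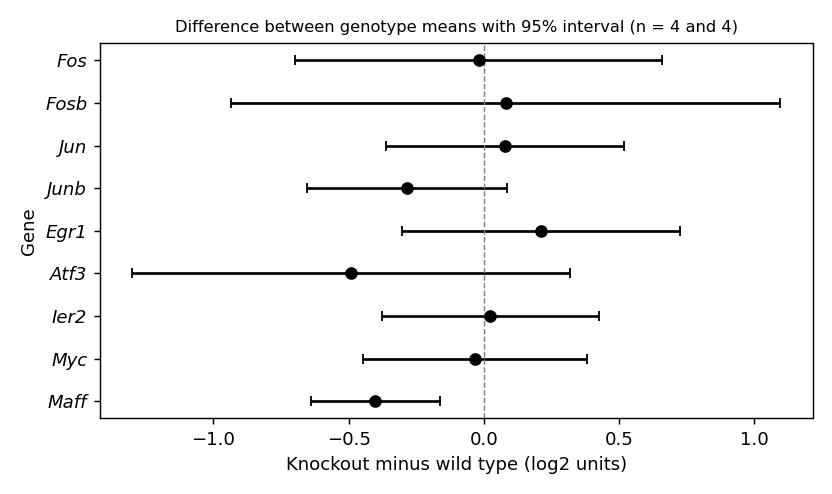
Difference of the knockout mean from the wild-type mean (horizontal axis, log2 units; points) with 95% intervals from limma (bars) for the 9 genes, n = 4 mice per genotype. The interval of Maff runs from -0.64 to -0.16, and that of Fosb is the widest.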

How the data were processed

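RNA of 1 gastrocnemius per mouse was labelled from the 3' end with an Affymetrix IVT kit, per the labels' protocols. The deposited log2 values came from RMA and R 3.1.2, per the submitters' processing notes; the chip, probe-set definition and filters were not given in the sources used here. RMA compresses differences near background, and the levels of different genes are not comparable. No detection call came with the values, and the number of arrays limits the precision.

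The 9 genes and all lists were chosen with earlier results of these data known. Limma 3.58.1 (R 4.3.3) was fitted to all 17352 rows, with genotype as its only term, default empirical Bayes moderation, two-sided tests and p-values adjusted over the whole table by Benjamini-Hochberg; no low-value filter was used. The fit was tested on simulated data. Gene lists fixed by symbol were not used, since the name table pairs 0 rows with an Ensembl ID; for the same reason the rule for similar rows, 5 by symbol, gave 2 by ID. Alternatives were a replicate block, other scalings, a filter on mean level (25th or 50th percentile), array weights, an intensity trend with robust moderation, and left-out arrays. Deviations of same-numbered arrays correlated at -0.072, -0.25, 0.18 and -0.24, so the numbers were not taken to pair animals. P-values set the difference between genotype means against the spread between these mice, moderated over all rows. Figures were drawn with matplotlib 3.10.9.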

Additional observations from a re-analysis of the deposited data

Results flagged for a closer look

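Each gene was checked in each genotype for a single array apart from its group, by the gap to its nearest neighbour as a share of the range of the group. An array counted as apart if this gap was over the Dixon critical value for 4 arrays, which by chance flags about 1 group in 20. Of 18 checks 2 found such an array. Since the genes were chosen with their variation between arrays known, nothing is read from that number. Egr1 in wild type replicate 2, at 10.06, stood off from its group, with a gap of 0.875 of the range. Atf3 in knockout replicate 3, at 8.37, passed the critical value only narrowly, with a gap of 0.833 of the range. Both arrays were also among the 3 highest for most of the other genes, and no cause was tested.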

How the results depend on the processing

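Over 17 alternative fits, 0 of the immediate-early genes and 0 rows higher in the knockout passed an adjusted p of 0.05 in limma. The count of lower rows over the whole table was 1 in place of 0 with the replicate block, array medians centred, quantile normalization once more, cyclic loess and array weights, and 0 in the others; with each array left out in turn it was 0 each time. The replicate block left the median difference at -0.02 and changed no call among the 9 genes. With each array left out in turn, that median ran from -0.16 to 0.20. The difference of Maff lay between -0.46 and -0.32 over the 17 fits, with a limma adjusted p of 0.936 to 1.00. Junb, Egr1 and Atf3 kept their sign in all 17 while Ier2 changed sign in 7, Fos in 6, and Fosb, Jun and Myc in 3 each, Fosb being left out by the filter at the 50th percentile. The SD of Maff within a genotype was above 40.4% of rows with cyclic loess in place of 24.2%, above 42.3% without wild type replicate 4 above 55.3% without wild type replicate 4 and knockout replicate 2, and above 5.11% without knockout replicate 4. The share of array pairs ordered as in Fos, whose alternatives were chosen after seeing the data, ran from 90.5% to 100% for Ier2, 71.4% to 85.7% for Fosb, 66.7% to 81.0% for Egr1, 52.4% to 81.0% for Jun and 57.1% to 76.2% for Atf3.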
